A study of Mus musculus with 3 samples.

Results

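Endothelial cells of inguinal fat that carried Plvap but little Gpihbp1 were drawn from the single-cell libraries of 3 mouse genotypes. A barcode belonged to the class when it held at least 1000 UMIs (unique molecular identifiers, each standing for 1 captured RNA molecule), at most 10% mitochondrial UMIs, at least 2 Plvap UMIs, at least 1 UMI of Pecam1 or Cdh5 and at most 1 of Gpihbp1. Barcodes with any Pdgfra or Epcam UMI, or with more than 1 Myh11 UMI, were left out. The class held 410 cells, out of 2181 endothelial cells by the same gate and 33663 barcodes that passed the UMI and mitochondrial limits. The cells it was set against were the 1241 endothelial cells with at least 2 Gpihbp1 UMIs, whatever their Plvap. Both classes were thus chosen by the measured counts of these 7 genes, whose levels are given as description and were not tested.

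The study asked how loss of matrix Gla protein, encoded by Mgp, alters the stromal vascular cells of subcutaneous fat. Each genotype was 1 droplet library of pooled fat pads from 4-week-old mice of both sexes, sorted to remove dead and CD45-stained cells after collagenase digestion. The wild-type library served as control, the Mgp-KO library came from mice with the gene deleted in every cell, and the Pd-KO library came from mice with floxed Mgp alleles and the Pdgfra-cre transgene. That transgene acts in Pdgfra-expressing cells and their descendants and is not an endothelial driver, and no library of floxed mice without it was used here. Of the class, 219 cells came from the wild-type library, 61 from Mgp-KO and 130 from Pd-KO.

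Capillary endothelium of adipose tissue carries GPIHBP1, the protein that brings lipoprotein lipase to the vessel lumen, and takes up fatty acids through CD36 and the fatty acid binding proteins. Postcapillary venules lack this equipment and instead display P-selectin, E-selectin and the chemokine receptor ACKR1, through which leukocytes leave the blood. High endothelial venules, found in lymph nodes, make GlyCAM-1, a mucin whose sugars bind L-selectin on lymphocytes, and the inguinal fat pad encloses a lymph node. PLVAP forms the diaphragms of endothelial caveolae and fenestrae and is a common marker of veins and fenestrated capillaries, while MGP is a secreted inhibitor of bone morphogenetic proteins (BMPs).

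The class was sampled unevenly. Its cells summed to 1542035 UMIs in the wild-type library, 189844 in the Mgp-KO library and 590866 in the Pd-KO library, with medians of 5827, 2735 and 4149 UMIs per cell. The medians of Gpihbp1-positive cells were 5733, 2693 and 3457, close to those of the class in each library. All levels are summed UMIs of a gene scaled to 1000000 UMIs of its class (CPM) and are given in the order wild-type, Mgp-KO, Pd-KO unless stated. A count of 0 allows up to 3 UMIs, which is 1.95, 15.8 and 5.08 CPM in the class. No barcode of the class occurred in more than 1 library, whereas 37 to 42 barcodes were shared by each pair of libraries among all that passed. With 1 library per genotype, differences between genotypes had no replicate check. Intervals are at the 95% level and cover counting error alone. Free RNA was read from barcodes of 10 to 100 UMIs.

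Of the markers given for the class, Plvap itself stood at 1564, 3018 and 2843 CPM. In Gpihbp1-positive cells Plvap reached 2385, 2448 and 1843 CPM, since 272 of 450, 121 of 240 and 258 of 551 of those cells also held at least 2 Plvap UMIs. With the comparison restricted to those cells, 561 genes were called higher and 267 lower, of which 457 and 183 were among the calls of the comparison given next. Pecam1 was at 740, 1212 and 1467 CPM in the class. Lrg1, a secreted glycoprotein of venular endothelium, was at 1185, 1406 and 951 CPM against 805, 551 and 491 CPM in Gpihbp1-positive cells. Emcn, the sialomucin endomucin, was at 449, 980 and 833 CPM against 691, 652 and 776 CPM, lower in the wild-type library and higher in the Mgp-KO library.

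At the edges of the gate, the members with exactly 2 Plvap UMIs had 198, 232 and 0 CPM of Selp, and endothelial cells with 1 Plvap UMI, which fell just outside, had 5.64, 0 and 28.2 CPM. Members with 1 Gpihbp1 UMI had 188, 0 and 158 CPM of Selp, and cells with 2 Gpihbp1 UMIs and at least 2 of Plvap had 158, 25.6 and 63.1 CPM. These edge groups held 9 to 62 cells each. The stromal gene Col1a1 was at 8444, 92.8 and 5126 CPM in the members with exactly 2 Plvap UMIs and at 6636, 6617 and 4907 CPM in the cells with 1. In the wild-type library those 43 members held 2129 of the 3733 Col1a1 UMIs of the class.

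Genes were compared between the classes over the 3 libraries, with the class sums of 1 library paired. Of 9208 genes fitted beyond those of the gate, 527 were higher (5.72%) and 298 lower (3.24%) in the Plvap-positive Gpihbp1-low cells, by edgeR's quasi-likelihood test with an adjusted p under 0.05. The libraries differed in genotype, so the spread that the test used includes any effect of Mgp. The classes were cut on Gpihbp1 in the same cells, and genes that follow it from cell to cell had to differ, so the calls describe the cut and support nothing beyond it. DESeq2 called 340 and 179, and of the listed genes named as called in the text it did not call Madcam1, Bmx, Icam2, H2-Ab1, Nid2, Jun, Dnajb1 and Pdgfrb. Without the wild-type library the counts were 347 and 191, and without the pairing of the classes within a library they were 106 and 47.

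Among all called genes Glycam1, a marker of high endothelial venules, had the highest log2 fold change, 8.82. Glycam1 was at 21413 CPM in wild-type, 1543 in Mgp-KO and 10089 in Pd-KO cells of the class, against 122, 0 and 3.51 CPM in Gpihbp1-positive cells. Glycam1 was found free in all libraries, at 404, 62.0 and 462 CPM, so the wild-type and Pd-KO values in Gpihbp1-positive cells lay below the free RNA. Fut7, the fucosyltransferase that completes selectin ligands, was at 84.3, 21.1 and 49.1 CPM against 3.59, 0 and 0 CPM (log2 fold change 5.15 ± 0.46 (SE), edgeR adjusted p = 0.00016, 3 libraries). Enpp2, which encodes the lysophospholipase autotaxin, was at 364, 221 and 374 CPM against 90.7, 22.7 and 59.7 CPM (log2 fold change 2.47 ± 0.20). The classes did not overlap for either gene. How many of all fitted genes show such a gap was not counted, here or for the genes below. Of the 8 genes listed for high endothelial venules, 7 were fitted and 5 were called higher, namely Glycam1, Fut7, Enpp2, Gcnt1 and Madcam1, with a median log2 fold change of 2.78 against 0.0039 over all fitted genes. Madcam1, the mucosal addressin, was at 80.4 against 5.55 CPM in the wild-type and 23.7 against 4.39 CPM in the Pd-KO library. In the Mgp-KO library Madcam1 went the other way, with 1 UMI in the class against 12 in Gpihbp1-positive cells. These were 5.27 against 16.0 CPM, a log2 ratio of -1.61 whose interval (-7.02 to 1.15) held both directions for Madcam1. Without the wild-type library its adjusted p was 0.46 by edgeR. The sulfotransferase gene Chst2 and the glycosyltransferase gene B3gnt3 were not called, with log2 fold changes of 0.68 and -0.08.

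Nearly all Glycam1 came from a few cells. In the wild-type library 37 of 219 cells (16.9%, exact binomial interval 12.2 to 22.5%) held at least 10 Glycam1 UMIs, and they held 99.5% of the class total. The Mgp-KO library had 3 such cells of 61 and the Pd-KO library 7 of 130. The richest wild-type cell carried 6620 Glycam1 UMIs, 33.7% of all its UMIs, and the richest Pd-KO cell 3223, or 37.0%, whereas the highest Mgp-KO cell had 203. At least 1 Glycam1 UMI was seen in 63.0% of the wild-type class, but also in 60.4% of wild-type stromal cells with at least 2 Pdgfra UMIs, whose median depth was 14825 UMIs, so single UMIs in this library read as background. Left without the cells of 10 UMIs or more, the class stood at 139, 22.5 and 60.7 CPM of Glycam1, below the free RNA of its library each time. Such cells were not confined to the class, since 89, 7 and 11 of all barcodes that passed held at least 10 Glycam1 UMIs. Endothelial cells with 1 Plvap UMI, just outside the gate, had 2203, 0 and 0 CPM of Glycam1. Members with exactly 2 Plvap UMIs had 2618, 3432 and 70.2 CPM.

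**Figure D1:**
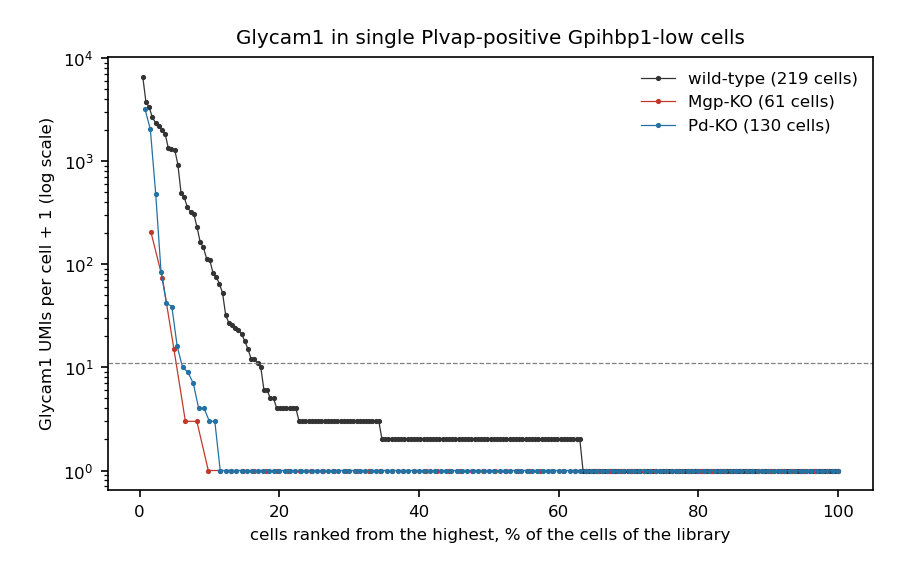
Glycam1 UMIs per cell plus 1 (log axis) for every Plvap-positive Gpihbp1-low cell, ranked from the highest within each library. Each point is a cell and the dashed line marks 10 UMIs. Wild-type has 37 cells on or above the line, Mgp-KO has 3 and Pd-KO has 7.

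Genes of venules were higher almost as a group. Of 13 listed genes 12 were called higher and Ephb4, the venous ephrin receptor, was not called, with a median log2 fold change of 1.65. Lrg1, which also marks the class, is among the 12. Selp, encoding P-selectin, was at 232, 838 and 164 CPM against 49.3, 18.7 and 27.7 CPM in Gpihbp1-positive cells (log2 fold change 3.09 ± 0.43, edgeR adjusted p = 0.0018). Sele, encoding E-selectin, was at 57.7, 379 and 44.0 CPM against 5.55, 1.34 and 3.95 CPM (log2 fold change 4.28 ± 0.48). For both selectins the Mgp-KO cells were the highest of the class and every class value exceeded every comparison value. Ackr1, the atypical receptor that carries chemokines across venules, was at 264, 585 and 332 CPM against 55.8, 22.7 and 25.0 CPM. Vwf, encoding von Willebrand factor, was at 391, 627 and 511 CPM against 75.7, 38.8 and 65.0 CPM, a log2 fold change of 2.97 ± 0.24. Nr2f2, the transcription factor that sets venous identity, was at 208, 400 and 261 CPM against 74.1, 94.9 and 94.4 CPM (log2 fold change 1.62 ± 0.16, edgeR adjusted p = 0.00027). Vcam1, Icam1, Il1r1, Csrp2, Tmem252 and Bst1 were the other members called higher, with log2 fold changes from 1.15 to 2.43. Csrp2 was at 369, 284 and 232 CPM in the class and 245, 464 and 362 CPM in free RNA, so the class lay below free RNA in both knockout libraries.

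**Figure D2:**
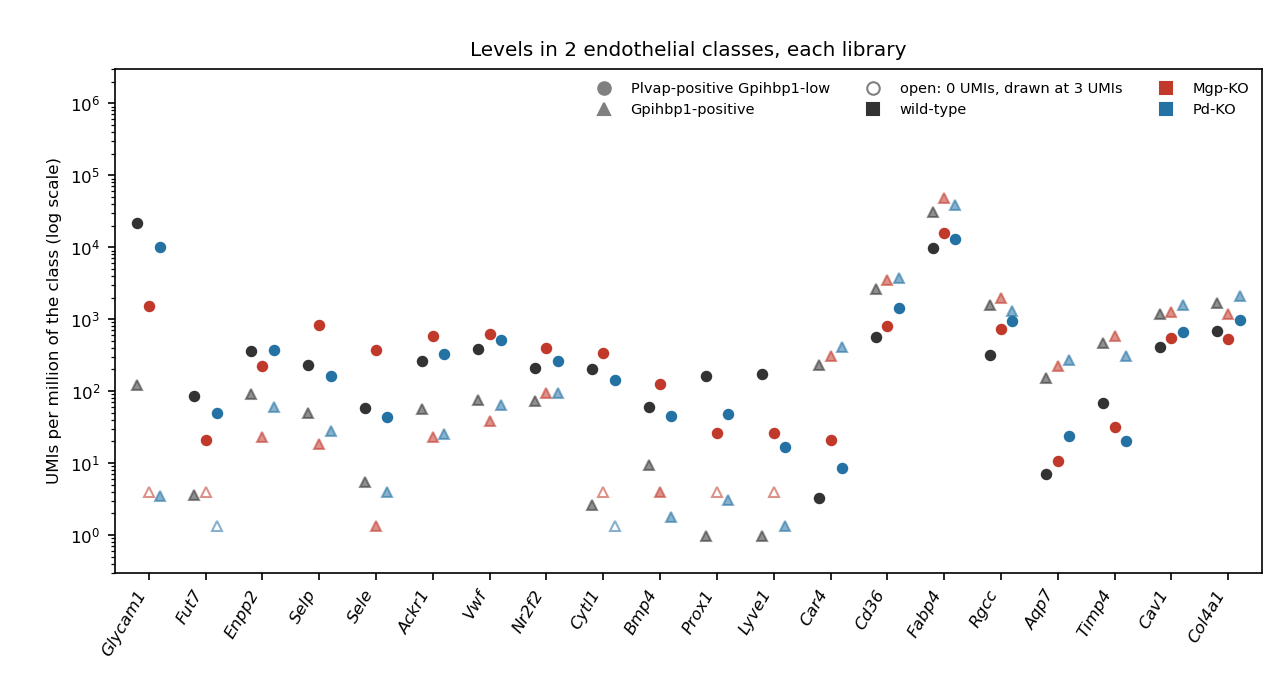
Levels in CPM (log axis) of 20 genes in Plvap-positive Gpihbp1-low cells (circles) and Gpihbp1-positive cells (triangles), coloured by library, with open symbols for 0 UMIs drawn at the level of 3 UMIs. Circles lie above triangles in all 3 libraries from Glycam1 to Lyve1 and below them from Car4 to Col4a1.

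The promoters of Glycam1, the gene with the highest fold change, and of both selectin genes are printed as the 250 bases before the annotated start on the gene's own strand (RefSeq, GRCm38.p6). Capitals mark the ETS-type core AGGAAG, or CTTCCT where it lies on the opposite strand, and in Sele the TATA box TATAAA. Glycam1 lies on the minus strand at chr15:103565082-103565331, Sele on the plus strand at chr1:164047984-164048233 and Selp on the plus strand at chr1:164115014-164115263.
Glycam1: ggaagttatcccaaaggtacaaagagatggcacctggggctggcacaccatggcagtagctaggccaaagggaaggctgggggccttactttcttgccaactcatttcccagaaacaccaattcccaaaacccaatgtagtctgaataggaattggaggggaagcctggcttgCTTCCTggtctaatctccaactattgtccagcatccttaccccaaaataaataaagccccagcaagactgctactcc
Sele: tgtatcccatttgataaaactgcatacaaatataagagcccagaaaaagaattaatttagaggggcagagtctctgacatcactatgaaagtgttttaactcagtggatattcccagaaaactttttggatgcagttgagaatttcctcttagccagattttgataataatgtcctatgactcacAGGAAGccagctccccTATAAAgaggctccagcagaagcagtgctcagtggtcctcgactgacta
Selp: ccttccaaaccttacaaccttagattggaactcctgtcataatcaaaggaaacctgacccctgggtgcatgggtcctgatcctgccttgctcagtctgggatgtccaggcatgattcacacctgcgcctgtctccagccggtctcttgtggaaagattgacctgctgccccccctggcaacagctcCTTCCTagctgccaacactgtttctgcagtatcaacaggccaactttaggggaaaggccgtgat
The AGGAAG match began 77 bases before the start of Glycam1, 65 before Sele and 64 before Selp, counted on the gene's strand. Both motifs were searched on both strands, do not overlap in these windows and were chosen after the sequences had been read. AGGAAG occurs in 29.5% of 32851 windows of this length and TATAAA in 12.4%, and 5 of 9 venule genes with a window hold AGGAAG, as do 5 of 7 high endothelial venule genes and 3 of 8 capillary lipid genes. These matches are descriptions of sequence.

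Lymphatic genes were also higher, although the gate did not ask for them. Prox1, the transcription factor of lymphatic identity, was at 163, 26.3 and 47.4 CPM against 0.979, 0 and 3.07 CPM (log2 fold change 5.82 ± 0.51, edgeR adjusted p = 0.00016). Lyve1, the hyaluronan receptor of lymphatic capillaries, was at 171, 26.3 and 16.9 CPM against 0.979, 0 and 1.32 CPM. These levels rested on 251, 5 and 28 UMIs of Prox1 and 264, 5 and 10 of Lyve1, most of them wild-type. Mmrn1 and Ccl21a were called as well and Flt4, the receptor for VEGF-C, was not, so 4 of the 5 fitted genes of 7 listed were higher. Ccl21a, a chemokine of both lymphatic vessels and high endothelial venules, was at 1689, 759 and 220 CPM against 70.5, 0 and 0 CPM.

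Arterial genes went both ways. Hey1, a Notch target, Sox17 and Sema3g were lower, with log2 fold changes of -1.30, -1.02 and -1.48, and the call on Hey1 was lost without the wild-type library (edgeR adjusted p = 0.11). Clu, encoding clusterin, was at 1922, 553 and 775 CPM against 216, 138 and 103 CPM and was called higher, as was Bmx with few UMIs. The other 7 of the 12 listed genes, among them Gja5, Gja4, Efnb2 and Dll4, were not called.

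The genes with which capillaries handle lipid were lower in the class. Of 12 fitted besides Gpihbp1, 10 were called lower, Meox2 and Scarb1 were not called, and the median log2 fold change was -2.18. Car4, the carbonic anhydrase of capillary surfaces, was at 3.24, 21.1 and 8.46 CPM against 233, 307 and 416 CPM (log2 fold change -5.48 ± 0.30, edgeR adjusted p = 2.4e-05). Fabp4, the fatty acid binding protein, was at 9820, 15829 and 13138 CPM against 30966, 48607 and 39222 CPM, a log2 fold change of -1.64 ± 0.08. Fabp4 remained the most abundant gene of this list in the class. Cd36, the fatty acid translocase, was at 569, 816 and 1418 CPM against 2648, 3464 and 3689 CPM. Aqp7, the glycerol channel, was at 7.13, 10.5 and 23.7 CPM against 151, 223 and 274 CPM, and Pparg, the nuclear receptor that drives lipid genes, was at 36.3, 52.7 and 94.8 CPM against 181, 466 and 503 CPM. The classes did not overlap for any of these 5 genes, and the share of all fitted genes without overlap was not counted. Outside the lists and at 50 CPM or more in Gpihbp1-positive cells, the lowest by fold were Tmem182, Cfd, Chchd10, Kcna5, Ablim3 and Rbp7, with log2 fold changes from -4.52 for Tmem182 to -2.79 for Rbp7, a retinol binding protein.

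Among genes outside the lists that were higher, Cytl1, a secreted cytokine-like protein, had 309, 65 and 85 UMIs in the class against 8, 0 and 0 in Gpihbp1-positive cells. Its levels in the class were 200, 342 and 144 CPM. Fxyd6, Cyp1b1 and Sema3d were also among the highest by fold, with log2 fold changes of 4.78, 4.66 and 4.06.

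Membrane domains and matrix differed too. Of 8 genes of caveolae and their diaphragms fitted besides Plvap, the 5 called were all lower, namely Cav1, Cav2, Cavin1, Cavin2 and Ehd2. Cav1, the main coat protein of caveolae, was at 416, 543 and 663 CPM against 1186, 1259 and 1563 CPM, a log2 fold change of -1.34 ± 0.12. Of 12 basement membrane genes 4 were called lower. Col4a1, a type IV collagen chain, was at 693, 527 and 966 CPM against 1674, 1172 and 2100 CPM, and Col4a2, Hspg2 and Nid2 were called with it. Kdr, the main VEGF receptor, was lower by a log2 fold change of -0.93 and its co-receptor Nrp1 by the same amount, while Flt1, Tek, Tie1 and Nrp2 were not called. The call on Kdr was lost without the Mgp-KO library (edgeR adjusted p = 0.088), and that on Nrp1 without the wild-type or the Mgp-KO library (0.11 and 0.19).

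Among 10 fitted leukocyte adhesion genes, which share Selp, Sele, Vcam1 and Icam1 with the venule list, 5 were called higher, those and Madcam1, and Icam2, a constitutive endothelial adhesion molecule, was called lower. Of 10 genes of chemokine handling 5 were called higher and 2 lower. Cxcl1, a neutrophil chemokine, was at 335, 142 and 47.4 CPM against 77.6, 36.1 and 8.78 CPM. In free RNA Cxcl1 was at 305, 793 and 125 CPM and Cxcl10 at 302, 364 and 54.1 CPM, so the class lay below free RNA in both knockout libraries for both genes. Cxcl10, induced by interferon, was at 354, 205 and 22.0 CPM against 63.3, 25.4 and 14.9 CPM, so the Pd-KO class lay below the wild-type comparison cells. Cxcl9, another chemokine induced by interferon, was called lower, at 117, 10.5 and 28.8 CPM against 195, 147 and 133 CPM. Cxcl12, which retains leukocytes and progenitors, was the other gene called lower, with a log2 fold change of -1.26, and that call was lost without the Mgp-KO library (edgeR adjusted p = 0.21). Of the class II genes Cd74, the invariant chain, was at 117, 89.5 and 86.3 CPM against 38.8, 2.67 and 7.90 CPM and was called higher with H2-Ab1. The class II gene H2-Aa was not called, at 6.48, 21.1 and 20.3 CPM against 12.7, 1.34 and 2.63 CPM. The class I genes H2-K1, H2-D1 and B2m were not called either. Cd74 stood at 462, 10.1 and 7.18 CPM in free RNA, above the class in the wild-type library. By edgeR 0 of 9 interferon-response genes and 0 of 7 fitted cell cycle genes were called, and DESeq2 called 0 of either. At an unadjusted p under 0.05, 1 interferon gene was higher and 2 lower and 0 cell cycle genes passed, beside 1033 higher and 781 lower of all 9208.

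Of 17 genes of BMP and TGF-beta signalling fitted, Bmp2, Bmp4 and Mgp were called higher, by edgeR and by DESeq2, and the other 14 were not called. Bmp4 was at 61.0, 126 and 45.7 CPM against 9.46, 4.01 and 1.76 CPM (log2 fold change 3.50 ± 0.37, edgeR adjusted p = 0.00041). Bmp2 was at 108, 26.3 and 59.2 CPM against 11.7, 14.7 and 5.71 CPM. Bmp6, the other BMP ligand fitted, was at 13.0, 21.1 and 27.1 CPM against 13.0, 38.8 and 92.6 CPM and was not called. The receptors Bmpr2, Acvrl1 and Bmpr1a and the target genes Id1, Id3, Smad6 and Smad7 were not called.

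Of 12 listed immediate-early and heat shock genes, which tissue digestion can induce, 7 were called higher in the class, namely Fos, Fosb, Jun, Junb, Atf3, Ier3 and the heat shock gene Dnajb1. The immediate-early genes Egr1, Ier2 and Nr4a1 and the heat shock genes Hspa1a and Hspa1b were not called. Ier3, a stress-response gene, was at 1108, 1912 and 247 CPM against 403, 359 and 99.2 CPM, and Fos at 1051, 2223 and 606 CPM against 644, 1117 and 327 CPM. The summed list stood at 7837, 11852 and 3649 CPM in the class and 5414, 6435 and 2369 CPM in Gpihbp1-positive cells, with Jun or Junb the most abundant gene in the class. The summed list in free RNA was 13699, 12864 and 4179 CPM, above the class in each library. The part of digestion in the venule and chemokine results was not tested.

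Markers of other cells were present in the class. The 6 stromal genes besides Pdgfra summed to 12456, 1912 and 4478 CPM in the class against 5755, 2512 and 2654 CPM, led by Col3a1. Lum, encoding lumican, was the stromal gene called higher, and without 2 clusters described below its log2 fold change turned to -0.56. Lum in the class, at 446, 242 and 84.6 CPM, lay below its free RNA in each library. The 7 mural genes besides Myh11 summed to 556, 543 and 327 CPM against 399, 235 and 154 CPM, with Tagln the most abundant and called higher with Pdgfrb. The 8 leukocyte genes summed to at most 23.3 CPM in a library of the class, and 3, 7 and 6 of them were at 0. The 4 Schwann cell genes summed to 29.8, 10.5 and 6.77 CPM in the class, against 6992, 109 and 137 CPM in free RNA. The 4 erythroid genes were lower in sum, at 463, 68.5 and 222 CPM against 2568, 1978 and 382 CPM. Free RNA held far more of the stromal genes, at 22040, 41026 and 85959 CPM. The part of these transcripts in the comparison was not tested. Without the 2 clusters, 435 genes were called higher and 242 lower.

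The 410 cells fell into 10 clusters, made without Mgp, Xist, Y-linked genes and the genes of the gate. Their leading genes are description, since the same counts formed them, and cells of all libraries were clustered together. Cluster 7 was the largest with 83 cells (30 wild-type, 24 Mgp-KO and 29 Pd-KO) and was venule-like, with 8 of 13 venule markers above the other cells and Selp, Ackr1, Sele and Tmem252 among its first 10 genes. Cluster 0 had 57 cells (38, 7 and 12) and was high endothelial venule-like: Glycam1 made up 86653 CPM, followed by Ccl21a, Ubd and Fut7. Lymphatic-like cells formed clusters 1 and 3. Cluster 1 had 16 cells (10, 2 and 4) led by Ackr4, Slc41a1 and Lcn2, and cluster 3 had 36 cells (31, 2 and 3) led by Lyve1 and Cd55. Of 7 lymphatic markers, 3 were above the other cells in cluster 1 and 6 in cluster 3. Cluster 3 also had the immune genes Ccl20, Ltb and Il4i1 among its first 10. Its Emcn was at 3.28 CPM, so a marker given for the class was nearly missing there. Cluster 4 held 26 arterial-like cells (12, 3 and 11) led by Gkn3, Sema3g and Stmn2, with 11 of 12 arterial markers above the other cells.

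The remaining clusters got no cell type name. Cluster 5, with 36 cells (24, 5 and 7), was led by Mgp and Cytl1 and had Vwf at 3031 CPM and Bmp4 at 409 CPM, with Selp at 111 CPM. Cluster 8, with 44 cells (21, 10 and 13), was led by Penk, hemoglobin genes and Esm1 and had Rgcc at 2414 CPM. Cluster 9 held 50 cells, none of them wild-type, 6 Mgp-KO and 44 Pd-KO, and was led by Mdga2, Chrm3 and Grin2a. Mdga2 and Chrm3 span 756 and 485 kb, the count files of the knockout libraries name another Cell Ranger version than the wild-type file, and the part of this in cluster 9 was not tested. Cluster 2 was made of 34 wild-type cells with a median of 1634 UMIs and was led by Sostdc1, with Scn7a and Kcna1 among its first 10 genes. Cluster 6, with 28 cells (19, 2 and 7), was led by Car3, Gsn and Dcn and had Col1a1 at 8956 CPM and Pecam1 at 171 CPM, which goes against its label. Clusters 2 and 6 are the ones left out above. By its own leading genes the class was thus a mixture.

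**Figure D3:**
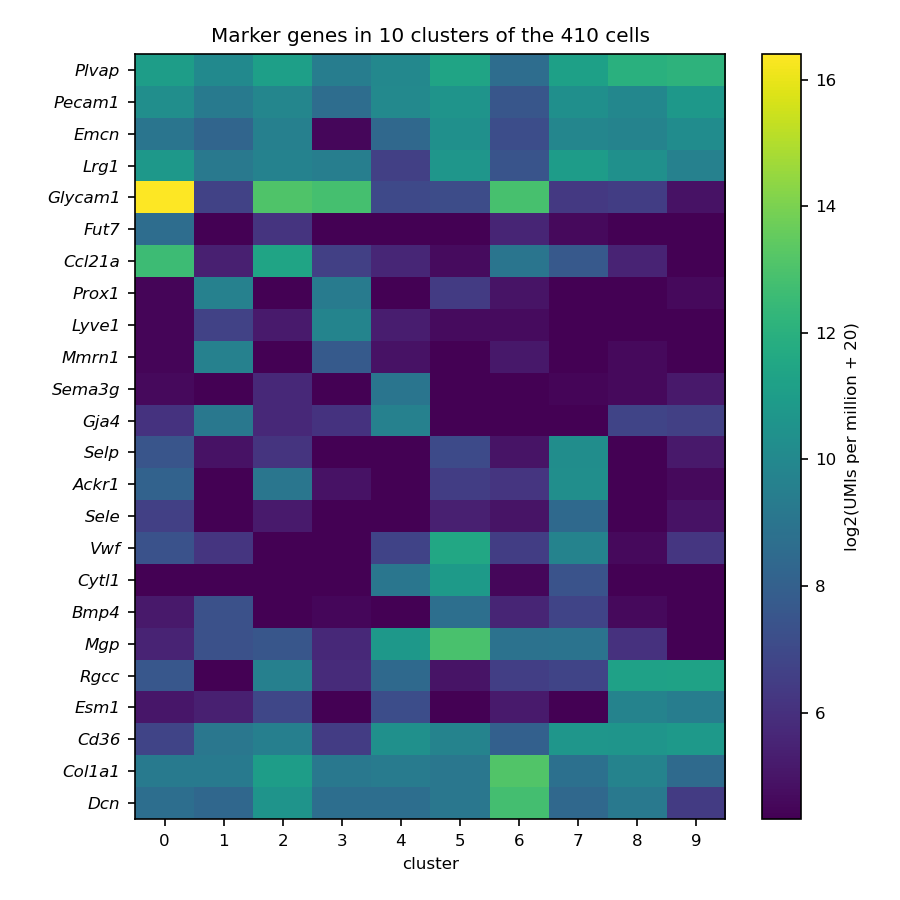
Heat map of marker genes (rows) in the 10 clusters of the 410 Plvap-positive Gpihbp1-low cells (columns), as log2 of CPM plus 20. Glycam1 peaks in cluster 0, Prox1 in clusters 1 and 3, Selp and Ackr1 in cluster 7, Mgp in cluster 5 and Col1a1 in cluster 6.

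Mgp, the deleted gene, checks the labels. In the class it was at 1224, 0 and 190 CPM, from 1887, 0 and 112 UMIs. If its count was at most 3 UMIs over the class, the Mgp-KO level was at least 77.4-fold lower than wild-type. The 95% counting interval of the log2 ratio ended at -5.98, which allows a smaller fold. The Pd-KO log2 ratio to wild-type was -2.69. In Gpihbp1-positive cells Mgp was at 121, 0 and 3.07 CPM, and in free RNA at 359, 1.27 and 6.28 CPM, so the wild-type value there lay below free RNA. In Pdgfra-positive stromal cells Mgp was at 447, 0.459 and 1.23 CPM. The Pd-KO library thus held Mgp in the Plvap-positive Gpihbp1-low cells at a level above its free RNA, its Gpihbp1-positive cells and its stromal cells. Over the libraries Mgp was called higher in the class (log2 fold change 4.00 ± 0.40, edgeR adjusted p = 0.00049), which rests on the wild-type and Pd-KO libraries, since both Mgp-KO sums were 0.

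Most Mgp of the class lay in 1 cluster. In cluster 5, led by Cytl1 and Vwf besides Mgp, every wild-type cell (24 of 24) and every Pd-KO cell (7 of 7) held Mgp, at 9394 CPM (exact Poisson interval 8890 to 9920) and 3669 CPM (2995 to 4450), and none of the 5 Mgp-KO cells did. These Pd-KO cells carried 103 of the 112 Mgp UMIs of their class. In the arterial-like cluster 4 Mgp was at 3082 CPM in 12 wild-type cells, with 140 of its 179 UMIs in a single cell, and at 0 in 11 Pd-KO cells, for which the upper limit was 96.1 CPM. In the venule-like cluster 7 Mgp was at 848 CPM in wild-type and 62.3 CPM, from 8 UMIs in 3 of 29 cells, in Pd-KO cells. Cells were not replicates here, and whether the Pd-KO ratio differed between clusters was not tested.

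**Figure D4:**
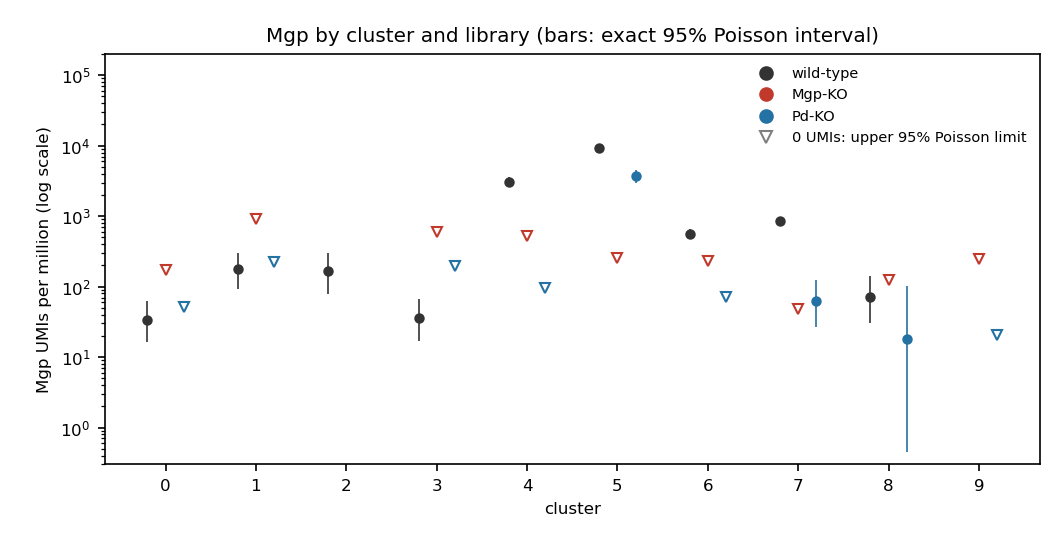
Mgp in CPM (log axis) by cluster and library of the Plvap-positive Gpihbp1-low cells, with exact 95% Poisson intervals and open triangles at the upper limit where no UMI was found. Wild-type cluster 5 is highest at 9394, Pd-KO cluster 5 follows at 3669, and all Mgp-KO clusters are at 0.

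The class made up 24.3% of endothelial cells in the wild-type library (219 of 901, exact binomial interval 21.5 to 27.2%), 15.3% in the Mgp-KO library (61 of 399, 11.9 to 19.2%) and 14.8% in the Pd-KO library (130 of 881, 12.5 to 17.3%). The gate sets fixed numbers of UMIs, and the libraries differed in depth. The part of depth in these shares was not tested. With every barcode that passed thinned to 1000 UMIs and the whole gate applied again, the shares were 25.1, 22.0 and 21.4%, with overlapping intervals. These were 216 of 862, 82 of 373 and 184 of 858 cells, so membership of the class changed with thinning. With a lower limit of 500 UMIs they were 9.41, 14.7 and 14.5%, so the wild-type library turned from the highest to the lowest. There the wild-type class grew from 219 to 234 cells and its endothelial cells from 901 to 2488. Wild-type had the highest share under the other alternatives, which were at least 2000 UMIs, no Gpihbp1 UMI, at least 3 Plvap UMIs and thinning.

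Between genotypes the levels of the class were set side by side as log2 ratios of single libraries, for genes with at least 100 UMIs over the pair. In Mgp-KO over wild-type cells 2666 genes were compared, of which 201 were over 2-fold higher (7.54%) and 191 over 2-fold lower (7.16%). In Pd-KO over wild-type cells 3488 were compared, with 489 higher (14%) and 193 lower (5.53%). The median over all genes was 0.083 and 0.078. Both ratios share the wild-type library, and the cluster makeup given above differed between libraries. Of the class, 65, 26 and 40 cells were scored female and 66, 8 and 39 male, with the others unassigned. The part of sex in the ratios was not tested.

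In Mgp-KO cells the venule gene Sele was among the 8 highest genes by the limit of its interval, with a log2 ratio of 2.72 (2.25 to 3.18). Selp had a ratio of 1.86 (1.58 to 2.13), Ackr1 1.15 and Tmem252 1.04, so 4 of the 11 venule genes compared were over 2-fold higher and none lower. Within the venule-like cluster alone, Selp was at 1179, 2035 and 677 CPM and Ackr1 at 1098, 1441 and 1393 CPM, from 30, 24 and 29 cells. Sele was at 246, 912 and 148 CPM in the same cells. In that cluster the Mgp-KO cells were again highest for Selp and Sele, by less than in the whole class. The cluster made up 13.7, 39.3 and 22.3% of the class. In Pd-KO over wild-type cells the venule genes went both ways, with Ephb4 and Il1r1 over 2-fold higher and Vcam1 and Icam1 over 2-fold lower.

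Of 5 high endothelial venule genes compared, 3 were over 2-fold lower in Mgp-KO over wild-type and 2 in Pd-KO over wild-type cells, in which Enpp2 was at 374 against 364 CPM. Glycam1 had a log2 ratio of -3.79 (-3.97 to -3.63) in Mgp-KO over wild-type and -1.09 in Pd-KO over wild-type cells. With each cell weighted equally the Mgp-KO ratio of Glycam1 was -3.02, and with no Gpihbp1 UMI allowed it was -4.12. Within cluster 0 Glycam1 was at 93452, 12897 and 80708 CPM, from 30 of 38, 3 of 7 and 7 of 12 cells. Of the lymphatic genes 4 of 4 compared were over 2-fold lower in the Mgp-KO pair and 4 of 5 in the Pd-KO pair. In the latter Ccl21a had a ratio of -2.94 (-3.21 to -2.69) and Flt4 of 0.021. The high endothelial venule-like cluster 0 held all 130 Pd-KO and 2228 of the 2604 wild-type UMIs of Ccl21a.

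Id1, a target gene of BMP signalling, was at 364, 932 and 745 CPM in the class, a log2 ratio of 1.36 (1.11 to 1.60) in Mgp-KO and 1.03 (0.85 to 1.22) in Pd-KO over wild-type cells. Id3 was at 574, 1169 and 966 CPM. Of 12 BMP and TGF-beta genes compared, 3 were over 2-fold higher and 2 lower in Mgp-KO over wild-type cells. In Pd-KO over wild-type cells 1 of 12 was higher and 1 lower. The deleted gene Mgp is in this list, as 1 of the 2 lower in the Mgp-KO pair and the 1 lower in the Pd-KO pair. The shares over all genes were 7.54 and 7.16% in the Mgp-KO pair, and 14 and 5.53% in the Pd-KO pair. Bmp2 was at 108, 26.3 and 59.2 CPM. Within the venule-like cluster Id1 was at 572, 1071 and 529 CPM, and within the arterial-like cluster at 1222, 2419 and 1953 CPM, where the Mgp-KO value came from 17 UMIs in 1 of 3 cells. The Poisson intervals of the wild-type and Pd-KO cells overlapped in both clusters, while the Mgp-KO interval of the venule-like cluster (850 to 1331) lay above that of wild-type (480 to 678). In cluster 5, which held most Mgp, Id1 was at 471, 205 and 428 CPM, the Mgp-KO value from 3 UMIs, and in cluster 8 at 1062, 1245 and 1264 CPM, with overlapping intervals in each. Id1 was at 385, 792 and 611 CPM in cluster 0, 54.2, 1216 and 182 CPM in cluster 1 and 76.3, 310 and 115 CPM in cluster 6, where the knockout values of clusters 1 and 6 came from 3 to 6 UMIs. In cluster 3 Id1 was at 10.7, 0 and 0 CPM, from 31, 2 and 3 cells. Cluster 9, without wild-type cells, had Id1 at 812 CPM in Mgp-KO and 895 CPM in Pd-KO cells. The wild-type cells of cluster 2 had 462 CPM. Whether the ratios differed between clusters was not tested. Flt1, a VEGF receptor, had ratios of 1.68 and 2.11, and Cxcl12 of 1.63 and 2.42. Of 7 chemokine handling genes compared, 2 were over 2-fold higher and 3 lower in the Mgp-KO pair. In the Pd-KO pair 1 was higher and 4 lower. Of 11 endothelial genes compared, 4 were over 2-fold higher in the Mgp-KO and 5 in the Pd-KO pair, with 1 lower in each. Endothelial genes outside the gate summed to 4546, 7127 and 7778 CPM, and the stromal sum given above was lower in both knockouts.

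In Pd-KO over wild-type cells 7 of the 12 immediate-early and heat shock genes were over 2-fold lower and none higher, with Hspa1a, a heat shock protein gene, at a log2 ratio of -3.90 (-4.92 to -3.05). In Mgp-KO over wild-type cells Fos and Atf3 were over 2-fold higher and Hspa1b over 2-fold lower. The chemokine gene Cxcl10 was among the 8 lowest in Pd-KO cells, with a ratio of -4.01. The same set held Gdf15, a stress-induced cytokine gene, with 3 against 146 UMIs, Hbb-bt, Apoc1 and Gm10260, which had 0 Pd-KO UMIs, and Car3, with 1 UMI in each knockout against 404 in wild-type cells. Car3 led cluster 6, and without clusters 2 and 6 its log2 ratio went from -5.64 to -2.08 in Mgp-KO and from -7.27 to -3.71 in Pd-KO over wild-type cells.

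Most of the remaining genes by this rule spanned long stretches of genome. In Mgp-KO over wild-type cells they were Magi1, Plcb1, Ptprm, Prkch, Ptprg, Maml2 and Stox2, and in Pd-KO over wild-type cells Camk1d, Prkg1, Chrm3, Magi1, Lrmda, Mdga2, Plcb1 and Cmss1. Camk1d, a calcium-dependent kinase gene, had 164 UMIs in Pd-KO against 3 in wild-type cells. Genes over 2-fold higher in Mgp-KO cells had a median span from start to end of 107 kb, those lower 12.8 kb and all compared 18.9 kb (GENCODE M21 annotation, GRCm38). For Pd-KO over wild-type the medians were 145, 10.1 and 23.4 kb. The count files name different Cell Ranger versions for the wild-type and the knockout libraries, and the part of this in the genotype values was not tested. Among the lowest in Mgp-KO cells were also the transcripts Gm42418 and AY036118, which overlap ribosomal RNA sequence, at log2 ratios of -3.63 and -4.14, and the stromal genes Col1a1, Col1a2 and Gsn, at -3.42, -2.96 and -2.90. Without clusters 2 and 6 the Col1a1 ratio was -2.78, and with each cell weighted equally the ratios were -4.05 for Col1a1, -3.72 for Col1a2 and -3.33 for Gsn.

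Between the knockout libraries 1386 genes reached 100 UMIs, of which 94 were over 2-fold higher (6.78%) and 38 over 2-fold lower (2.74%) in Pd-KO than in Mgp-KO cells. Mgp had 112 against 0 UMIs and Glycam1 a log2 ratio of 2.71. Ier3, Atf3, Fos, Nfkbia, Nfkbiz, Gadd45g and Selp were among the 8 lowest, with Ier3 at -2.95 (-3.24 to -2.67) and Selp at -2.35 (-2.73 to -1.98).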

How the data were processed

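UMI counts per gene and barcode were deposited as unfiltered 10x matrices of 32285 genes. Per the labels and the study's methods, the authors made them from 3′ libraries with Cell Ranger 6.1.1. The labels name build GRCm39 and the methods mm10, while the file headers name Cell Ranger 4 (wild-type) and 7.1.0 (both knockouts), and intron counting is not given in the sources used here. No doublet caller was run, and the gate leaves out cells with Pdgfra, Epcam or more than 1 Myh11 UMI. Class sums were compared with edgeR 4.0.16 (quasi-likelihood, TMM, library as block, low counts filtered, R 4.3.3), with standard errors taken from the F statistic. The fit was tested on simulated data. Genotype ratios carry conditional binomial intervals, and levels exact Poisson ones. Clusters came from scanpy 1.11.5 (2000 variable genes, 15 components, Leiden resolution 0.5). Between the classes, the 12 highest and 12 lowest called genes of at least 50 CPM were named. For each library pair these were the 8 highest and 8 lowest by the interval limit nearest 0, of at least 50 CPM. List genes may be named besides, and some genes that these rules name are not reported here. The members and lists were chosen with earlier results of these data known. Alternatives were DESeq2 1.42.0, other gates, filters, scalings and omitted libraries.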

Additional observations from a re-analysis of the deposited data

Results flagged for a closer look

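Some listed genes differed between the classes in opposite directions in separate libraries, each beyond counting error, and whether these library differences exceed replicate error was not tested. The values are log2 ratios of Plvap-positive Gpihbp1-low over Gpihbp1-positive cells. Emcn was at 0.59 in the Mgp-KO and -0.62 in the wild-type library, Tek at 0.73 and -0.62, Eng at 0.55 and -0.20, Ehd4 at 0.51 and -0.44, and Cd34 at 0.38 and -0.52. Esm1 was at 0.60 in the Pd-KO and -1.82 in the wild-type library, Cavin3 at 0.27 and -0.49, and Acta2 at 2.05 and -0.35. Ccl2 was at 1.11 in the wild-type and -2.75 in the Pd-KO library. Col1a1 was at 1.11 in the wild-type and -1.09 in the Mgp-KO library, Col1a2 at 1.24 and -0.67, Col3a1 at 0.94 and -0.29, and Lpl at 0.79 and -0.58.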

How the results depend on the processing

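No paired analysis was possible between genotypes because each had 1 library, whereas the comparison of the classes was paired within libraries. Against 527 genes higher and 298 lower, the fit with no library block called 106 and 47, DESeq2 340 and 179, the fit with no low count filter 836 and 580, and cells thinned to 1000 UMIs gave 209 and 164. Leaving out each library in turn gave 347 to 677 higher and 191 to 433 lower. Without the stromal-led cluster and the wild-type-only cluster, an alternative chosen after seeing the data, the log2 fold changes of Col1a1 and Lum turned to -1.10 and -0.56. Lpl turned to 1.15 against Gpihbp1-positive cells that also had at least 2 Plvap UMIs. The cause was not tested. The wild-type share of 24.3% was 9.41% with at least 500 UMIs, 18.1% with no Gpihbp1 UMI and 19.5% with at least 3 Plvap UMIs. The Mgp-KO share was 22.0% when thinned, and the Pd-KO share 21.4% when thinned, 17.5% with at least 2000 UMIs and 10.6% with no Gpihbp1 UMI. The Pd-KO log2 ratio of Mgp was -2.39 with no Gpihbp1 UMI. Of the single-gene fold changes under the alternatives, 2168 kept their side of the threshold, 127 lost a call, 105 gained one and 3 turned. Only genes called in the main or the alternative fit could count as turned. A change of direction in a gene called in neither is among the 2168. The Mgp-KO values rest on 61 cells.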
